A study of Mus musculus with 12 samples.

Results

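The immediate early stress genes Fos, Fosb, Jun, Junb, Atf3, Egr1, Klf4, Klf6, Ier2 and Ier3 were followed in mouse kidney. They were chosen by symbol, through the Ensembl gene ID of each row, and all 10 were found among the 21899 genes of the deposited table. Kidney mRNA was sequenced in 4 groups of 3 libraries. The db/db-GABP-KD group held db/db mice in which GABP was to be knocked down, and the db/m-GABP-OE group held db/m mice in which GABP was to be overexpressed. The db/db-veh group held db/db mice given vehicle, labelled as diabetic nephropathy, and the db/m-veh group held db/m mice given vehicle as normal controls. The db mutation disrupts signalling by the leptin receptor, so db/db mice grow obese and diabetic, whereas db/m mice carry 1 mutant copy and stay lean. The means of raising or lowering GABP, the kidney cells reached and the age of the mice were not given in the sources used here. Tissue came from 6 mice per group, with 3 tissues mixed for each extraction, so the 3 libraries of a group may share animals and may not be independent. The p-values then measure only the spread between these libraries.

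Immediate early genes are transcribed within minutes of a stimulus, from transcripts that are soon degraded, and need no new protein for their induction. Fos and Jun family proteins pair to form AP-1, a transcription factor that binds DNA as a dimer, and Atf3, Egr1, Klf4 and Klf6 encode further transcription factors of the early response. In kidney these genes are known to be induced by ischemia, toxic injury and the handling of tissue. GABP, the factor targeted in the study, is an ETS family transcription factor made of a DNA-binding alpha subunit and a beta subunit.

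Promoter sequences are shown for 5 members whose levels varied most or that are central to AP-1, because several immediate early promoters are known to carry binding sites for the ATF/CREB and AP-1 factors that the members themselves encode. The lines give the 150 bases before the start of the gene in the RefSeq promoter table (build GRCm38.p6), 5′ to 3′ on the gene's strand. Capitals mark TGACNTCA, the 8-base site of ATF/CREB and Jun proteins, or TGACG, its shorter core, in the direction of the gene or as the reverse complement CGTCA.
Jun: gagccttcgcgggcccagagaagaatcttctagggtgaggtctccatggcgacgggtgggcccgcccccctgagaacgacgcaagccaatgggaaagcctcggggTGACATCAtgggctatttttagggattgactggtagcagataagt
Klf6: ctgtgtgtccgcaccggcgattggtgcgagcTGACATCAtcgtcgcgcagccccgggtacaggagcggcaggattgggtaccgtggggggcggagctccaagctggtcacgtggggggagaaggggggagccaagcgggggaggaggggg
Fos: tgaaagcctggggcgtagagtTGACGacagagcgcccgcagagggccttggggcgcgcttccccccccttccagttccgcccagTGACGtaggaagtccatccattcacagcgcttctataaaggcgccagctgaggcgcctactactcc
Junb: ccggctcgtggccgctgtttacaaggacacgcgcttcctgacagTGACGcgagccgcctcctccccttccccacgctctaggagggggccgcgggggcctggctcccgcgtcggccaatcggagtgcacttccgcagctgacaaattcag
Atf3: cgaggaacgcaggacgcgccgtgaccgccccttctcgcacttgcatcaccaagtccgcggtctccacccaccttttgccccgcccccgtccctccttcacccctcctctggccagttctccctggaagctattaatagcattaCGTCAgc
The windows lie at chr4:95052223-95052372 (minus strand), chr13:5861339-5861488 (plus strand), chr12:85473740-85473889 (plus strand), chr8:84978749-84978898 (minus strand) and chr1:191183334-191183483 (minus strand). The Atf3 window belongs to a start inside the gene span of GENCODE M21, which reaches to 191218039. Promoters were taken by symbol and used for 8 of the 10 members. Egr1 and Ier2 were left out, so the counts below do not cover them. In the 250 bases before the start, on both strands, TGACNTCA was found in 2 of 8 members and in 7.49% of all 32841 promoters. It began 45 bases before the start of Jun and 119 bases before that of Klf6. TGACG was found in 5 of 8 members, Fos, Fosb, Junb, Atf3 and Klf4, and in 17.8% of all promoters. TGACNTCA contains the shorter core when its N is G, which was not the case in Jun or Klf6. The AP-1 site TGANTCA (6.75% of all promoters), the ETS site CCGGAAG bound by GABP (6.91%) and the CArG box of serum response factor (1.47%) were found in 0 of 8. Bases farther upstream and the promoters of Egr1 and Ier2 were not searched. The 0 of 8 therefore does not show that these genes lack such sites. TGACNTCA and TGACG were added after the windows had been read. A match is a description of these letters and not a binding site shown to be in use.

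Levels are the deposited FPKM, in which fragments are divided by exon length and by the total of the library. A library held 6.73 to 9.62 M fragments (M, 1e6), of which 47.9% in db/db-GABP-KD 1 to 86.0% in db/db-veh 2 came from the 13 mitochondrially encoded genes. FPKM of nuclear genes therefore shifted as a whole between libraries, and each result is also given after median of ratios scaling, which divides a library by the typical ratio of its genes to their mean over libraries (size factors 0.529 to 1.71). Nephron markers were present in every library, and a bulk kidney library cannot tell fewer cells of a type from less RNA per cell. Gabpa, the alpha subunit of GABP, stood at 2.66 to 6.62 FPKM in the libraries labelled db/db-GABP-KD, 3.35 to 3.71 FPKM in db/m-GABP-OE, 1.63 to 2.20 FPKM in db/db-veh and 1.79 to 2.54 FPKM in db/m-veh. After scaling these ranges were 3.00 to 3.86, 2.57 to 2.79, 2.02 to 4.10 and 1.83 to 2.81 FPKM, in the same order. Both GABP groups then overlapped their vehicle groups. On neither scale did Gabpa in the libraries labelled as knockdown lie below db/db-veh, and these labels are kept as names here. Of the 10 members, 9 passed the filter on low values (at least 0.3 FPKM in at least 3 libraries), and Fosb did not.

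**Figure D1:**
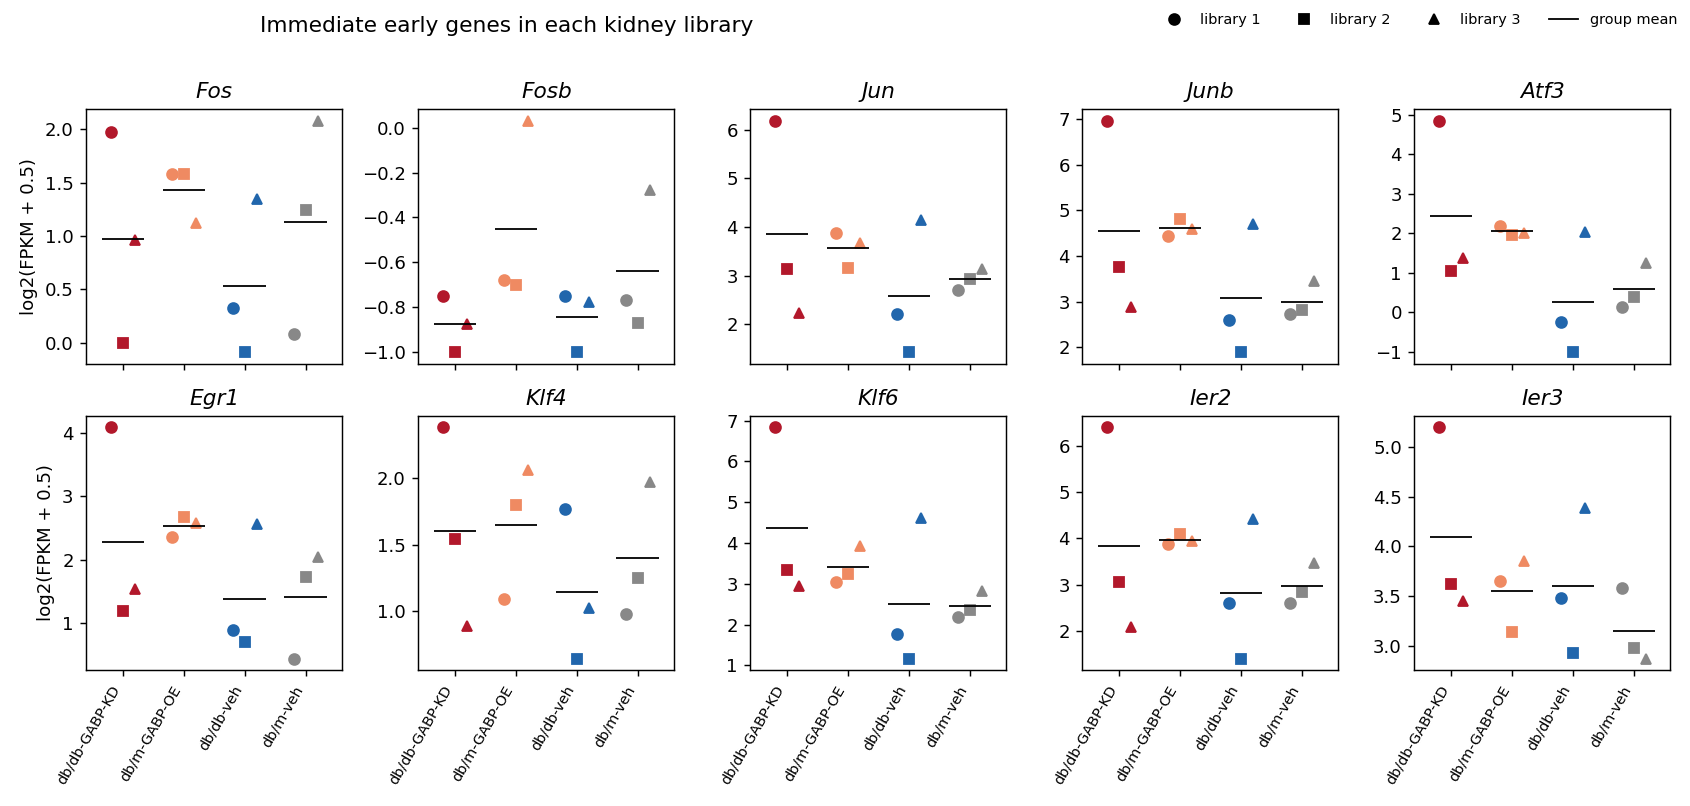
Level of each of the 10 members in each library, as log2(FPKM + 0.5), with 1 panel per gene and the 4 groups along the horizontal axis. Symbols are libraries 1 to 3 of a group and lines are group means. For Jun, Junb, Atf3, Egr1, Klf6, Ier2 and Ier3 library db/db-GABP-KD 1 is the highest point and db/db-veh 3 is the highest of its group.

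The JUN side of AP-1 held the member with the highest level. Junb, which encodes the Jun protein that often tempers c-Jun (ENSMUSG00000052837, GRCm38 chromosome 8, 84974484 to 84978718, minus strand), was at 124.6, 13.06 and 6.86 FPKM in db/db-GABP-KD libraries 1, 2 and 3, against 5.57, 3.21 and 25.7 FPKM in db/db-veh. It was at 21.1, 27.6 and 23.7 FPKM in db/m-GABP-OE, against 6.13, 6.51 and 10.4 FPKM in db/m-veh. Every db/m-GABP-OE library exceeded every db/m-veh library, while db/db-GABP-KD and db/db-veh overlapped, each having 1 library far above the others. Its exons overlap those of Prdx2 on the other strand, and with the strand setting of the counting not given in the sources used here, reads of the pair may not be told apart. Prdx2 was at 34.0 FPKM in db/db-GABP-KD 1, its highest library as deposited. After scaling Prdx2 was at 19.8 there, the highest of that group, against 9.05 to 13.99 in db/db-veh. That scaled value lay within the 15.7 to 21.2 of db/m-GABP-OE and below the highest db/m-veh library, at 21.3. Jun, which encodes c-Jun (ENSMUSG00000052684, chromosome 4, 95049034 to 95052222, minus strand, a single exon), was at 72.5, 8.37 and 4.19 FPKM in db/db-GABP-KD, against 4.11, 2.20 and 17.1 FPKM in db/db-veh. It was at 14.2, 8.47 and 12.2 FPKM in db/m-GABP-OE, against 6.07, 7.09 and 8.26 FPKM in db/m-veh. The same libraries stood out as for Junb, and the lowest db/m-GABP-OE library lay just above the highest of db/m-veh. An antisense gene, Junos, overlaps Jun and could share its reads in the same way.

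The FOS side was low. Fos, which encodes c-Fos (ENSMUSG00000021250, chromosome 12, 85473890 to 85477273, plus strand), was at 3.42, 0.495 and 1.45 FPKM in db/db-GABP-KD, against 0.752, 0.441 and 2.05 FPKM in db/db-veh. It was at 2.495, 2.497 and 1.68 FPKM in db/m-GABP-OE, against 0.558, 1.87 and 3.73 FPKM in db/m-veh. These levels rest on 8 to 82 fragments per library, the groups overlapped in every comparison, and the highest library was db/m-veh 3 and not db/db-GABP-KD 1. Fosb, a second Fos protein (ENSMUSG00000003545, chromosome 7, 19302696 to 19310051, minus strand), held 0 to 28 fragments per library. Its highest values were 0.522 FPKM in db/m-GABP-OE 3 and 0.326 FPKM in db/m-veh 3, and it had no fragment in db/db-GABP-KD 2 and db/db-veh 2, where a count of 0 allows up to 0.0560 and 0.0624 FPKM (floor of 3 fragments per library, counting error only). Fosb did not go with the Jun genes and was not tested further.

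Atf3, a stress-induced member of the ATF/CREB family that can repress its targets (ENSMUSG00000026628, chromosome 1, 191170296 to 191218039, minus strand), was at 28.3, 1.57 and 2.11 FPKM in db/db-GABP-KD. In db/db-veh it was at 0.342, 0 and 3.57 FPKM, the 0 allowing up to 0.181 FPKM. It was at 4.01, 3.40 and 3.51 FPKM in db/m-GABP-OE, against 0.609, 0.818 and 1.89 FPKM in db/m-veh. The db/m-GABP-OE libraries lay close together and all above db/m-veh, whereas db/db-veh ran from no fragment to 59 fragments. Egr1, a zinc finger factor of growth and injury responses (ENSMUSG00000038418, chromosome 18), was at 16.4, 1.77 and 2.41 FPKM in db/db-GABP-KD, against 1.35, 1.13 and 5.37 FPKM in db/db-veh. It was at 4.62, 5.86 and 5.48 FPKM in db/m-GABP-OE, against 0.853, 2.81 and 3.63 FPKM in db/m-veh. As for Atf3, db/db-GABP-KD 1 and db/db-veh 3 were the high libraries and db/m-GABP-OE lay above db/m-veh, with a smaller excess in db/db-GABP-KD 1.

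The KLF genes parted. Klf6, a zinc finger factor induced in injured epithelium (ENSMUSG00000000078, chromosome 13, 5861482 to 5870394, plus strand), was at 113.6, 9.63 and 7.19 FPKM in db/db-GABP-KD, against 2.89, 1.74 and 23.9 FPKM in db/db-veh. It was at 7.72, 8.92 and 14.8 FPKM in db/m-GABP-OE, against 4.03, 4.61 and 6.58 FPKM in db/m-veh. Klf6 had its high libraries where Jun and Junb had theirs, and db/m-GABP-OE lay above db/m-veh without overlap. Klf4, a factor of epithelial differentiation (ENSMUSG00000003032, chromosome 4, 55527143 to 55532466, minus strand), was at 4.70, 2.41 and 1.35 FPKM in db/db-GABP-KD, against 2.90, 1.06 and 1.54 FPKM in db/db-veh. It was at 1.63, 2.97 and 3.67 FPKM in db/m-GABP-OE, against 1.47, 1.88 and 3.41 FPKM in db/m-veh. Klf4 overlapped in every comparison and in db/db-veh was highest in library 1, not library 3.

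Ier2 and Ier3 share the name of immediate early response genes but not a sequence family. Ier2, a nuclear protein gene (ENSMUSG00000053560, chromosome 8, 84661331 to 84662852, minus strand, 1 exon), was at 84.4, 7.80 and 3.73 FPKM in db/db-GABP-KD, against 5.61, 2.13 and 20.9 FPKM in db/db-veh. It was at 14.3, 16.5 and 14.8 FPKM in db/m-GABP-OE, against 5.60, 6.64 and 10.5 FPKM in db/m-veh. As for Junb, 1 library of each db/db group stood far above the others, and db/m-GABP-OE lay above db/m-veh without overlap. Ier3, which encodes a regulator of apoptosis (ENSMUSG00000003541, chromosome 17, 35821684 to 35822923, plus strand), was at 36.2, 11.8 and 10.4 FPKM in db/db-GABP-KD, against 10.7, 7.11 and 20.5 FPKM in db/db-veh. It was at 12.04, 8.29 and 14.00 FPKM in db/m-GABP-OE, against 11.5, 7.40 and 6.82 FPKM in db/m-veh. Ier3 kept a level of at least 6.82 FPKM in all 12 libraries, so its range was narrow beside that of Ier2.

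The libraries labelled db/db-GABP-KD were set against db/db-veh. Because Gabpa was not lower in them, this compares groups by label and not by a measured loss of Gabpa RNA. As deposited, the group means of 9 members were higher and that of Fosb lower, with ratios of means of 8.17 for Atf3, 4.58 for Klf6, 4.19 for Junb, 3.62 for Jun and 3.35 for Ier2. After scaling Fos, Klf4, Ier3 and Fosb stood below 1, at 0.987, 0.981, 0.909 and 0.510. The ratios of Atf3, Klf6, Junb, Jun and Ier2 were then 4.28, 2.36, 2.16, 1.88 and 1.72. Library 1 held the largest value of each of these 5 genes, and 0 of 10 members had all 3 libraries above or below all 3 of db/db-veh, where 17.3% of genes lay above and 0.822% below (4.62% and 5.73% after scaling). limma called 0 of 9 members at a Benjamini-Hochberg adjusted p under 0.05, against 0% of 12897 genes. At an unadjusted p under 0.05 it had 2 of 9 members, against 1839 of 12897 genes. Atf3 had a log2 fold change of 2.17 (SE 0.81, limma adjusted p = 0.345) and Klf6 one of 1.86 (SE 0.87, limma adjusted p = 0.347). limma-voom on the recovered fragments also called 0, of 8 members, with 2 at an unadjusted p under 0.05. The median log2 fold change of the 9 members was 1.04, against 0.42 over all genes, and after scaling it was 0.47 against 0.00, with 0 of 9 called against 0.0389% of genes. Without db/db-GABP-KD 1 it was 0.07 against 0.22, with 0 of 9 called against 0.0313% of genes, and with scaling as well -0.16 against 0.02. Atf3 then had 0.96 (limma adjusted p = 0.652), Klf6 0.63, Junb 0.25, Jun 0.10 and Ier2 -0.24. Leaving out db/db-veh 3 instead moved the values up, to 3.05 for Atf3 (limma adjusted p = 0.28), 2.91 for Klf6 and 2.29 for Junb, with 0 of 9 called.

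**Figure D2:**
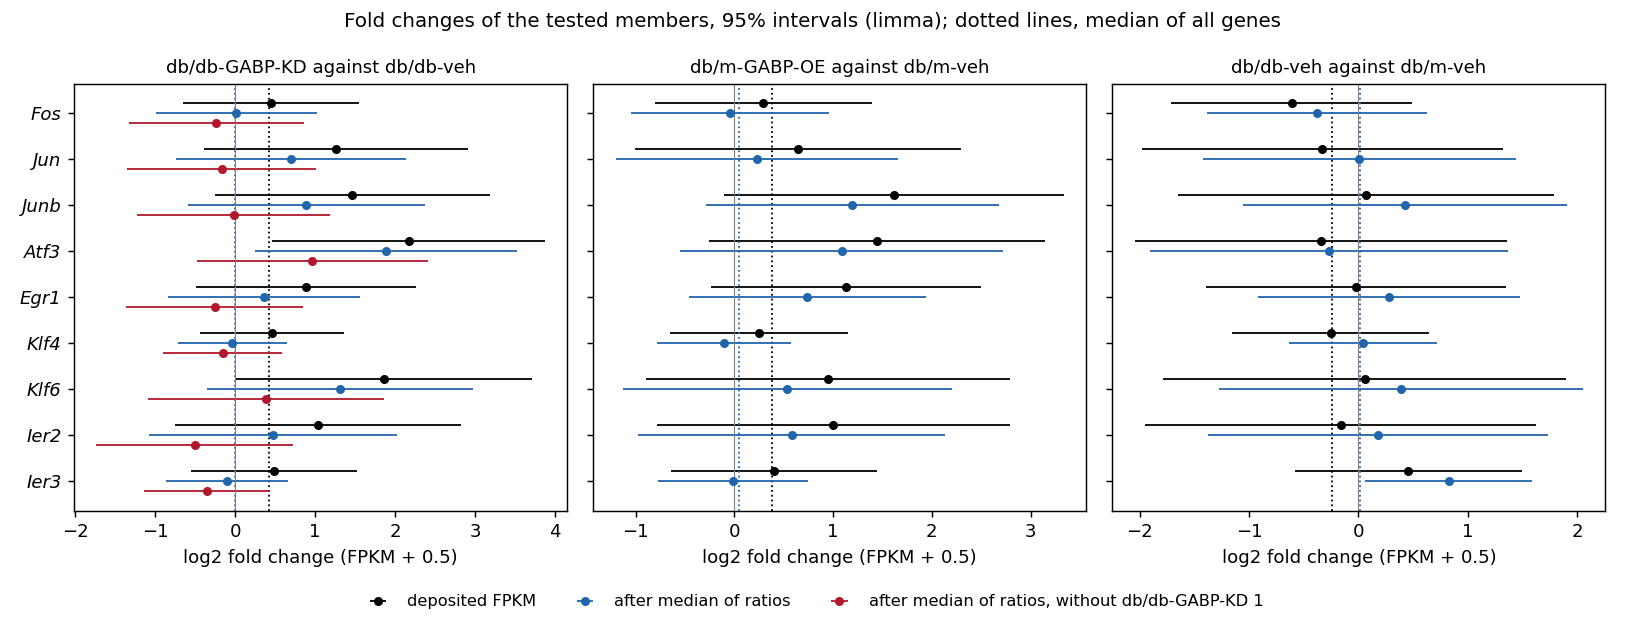
Log2 fold change of each of the 9 tested members on the log2(FPKM + 0.5) scale in the 3 comparisons, with 95% intervals from limma. Black points are deposited FPKM, blue points follow median of ratios, and red points, in the db/db-GABP-KD comparison, also leave out db/db-GABP-KD 1. Dotted lines mark the median of all genes. The red points for Ier2 and Egr1 lie below 0, while the black ones lie at 1.04 and 0.89.

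The single library was then compared with the other 11. As deposited, db/db-GABP-KD 1 was the highest library for 8 of 10 members, and for 39.9% of all genes tested. After scaling it was highest for 6 members, Jun, Junb, Atf3, Egr1, Klf6 and Ier2, and for 16.5% of genes. It exceeded the next library by more than 2 times for 6 members as deposited, against 10.2% of genes. After scaling it did so for 3 members, against 1.54% of genes, namely Atf3 (3.72 times), Junb (2.28 times) and Klf6 (2.24 times). Relative to the median of the other 11 libraries the scaled level was 10.8 times for Klf6, 9.33 for Atf3, 7.56 for Junb, 5.61 for Ier2 and 5.55 for Jun. Klf6 and Atf3 ranked 34 and 37 among 12844 genes by that ratio. Egr1 stood at 2.87 times, Ier3 at 1.86, Fos at 1.26 and Klf4 at 1.20, so the members did not move as 1 block even there. These are values of 1 library and have no replicate check.

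**Figure D3:**
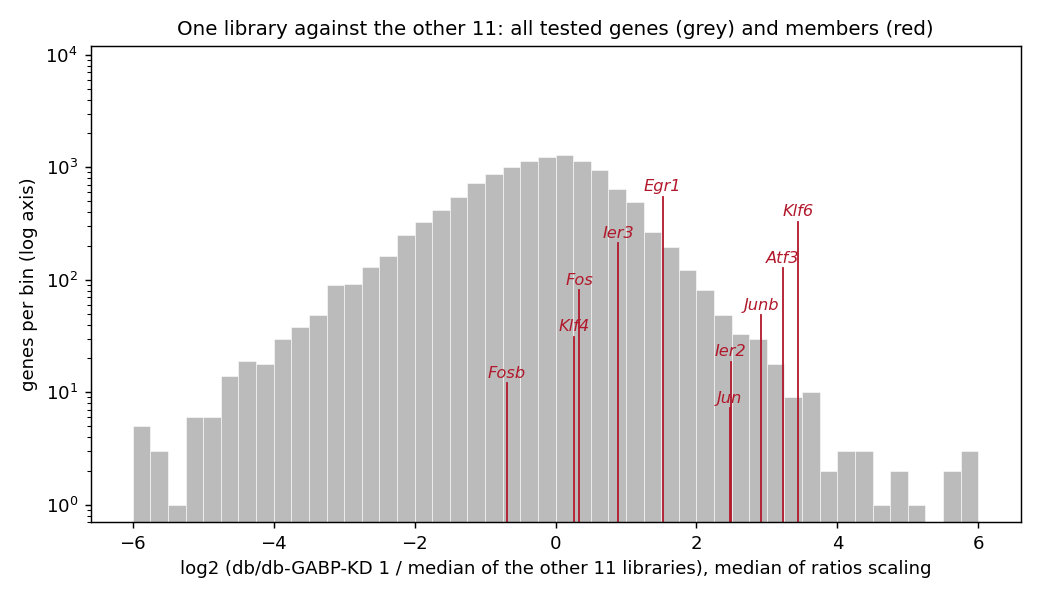
Histogram of the log2 ratio of library db/db-GABP-KD 1 to the median of the other 11 libraries after median of ratios scaling, over 12536 genes with both values above 0. The vertical axis is the number of genes per bin on a log scale, and values beyond ±6 are counted in the end bins. Red lines mark the 10 members at heights chosen for legibility, with Klf6, Atf3 and Junb in the right tail and Fosb left of 0.

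The library db/db-veh 3 stood next. After scaling, with db/db-GABP-KD 1 set aside, it was the highest library for 7 members, Jun, Junb, Atf3, Egr1, Klf6, Ier2 and Ier3. The share of all genes for that was not counted. Among all 12 libraries db/db-veh 3 was highest after scaling for 1 member, Ier3, and for 7.37% of genes. As deposited it exceeded the mean of db/db-veh 1 and 2 by 20.8 times for Atf3, 10.3 for Klf6, 5.85 for Junb, 5.43 for Jun, 5.41 for Ier2, 4.34 for Egr1, 3.43 for Fos and 2.30 for Ier3, whereas Klf4 stood at 0.775 of that mean. The summed level of the 10 members was 484.2, 56.9 and 39.8 FPKM in db/db-GABP-KD 1 to 3, against 34.3, 19.0 and 120.7 FPKM in db/db-veh 1 to 3. It was 82.2, 84.6 and 94.4 FPKM in db/m-GABP-OE 1 to 3, against 36.9, 39.7 and 55.6 FPKM in db/m-veh 1 to 3. The db/db libraries therefore held both the highest sums and the lowest one, and the db/m groups were each narrow. Library db/db-veh 2, with the largest mitochondrial share, was lowest for 8 of 10 members and for 51.2% of genes, and after scaling for 4 members and 13.6% of genes.

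The members that were high in single libraries also had a wide spread within groups. The pooled SD of log2(FPKM + 0.5) within groups was 1.44 for Klf6, 1.39 for Ier2, 1.35 for Atf3, 1.32 for Junb and 1.27 for Jun, against a median of 0.438 over all genes tested. These 5 lay above 99.5% of genes. Klf4 had an SD of 0.590, at the 78.0th percentile, and after scaling 0.406, at the 59.7th. Without db/db-GABP-KD 1 the scaled SD of Klf6 was 0.979 and that of Atf3 0.965, both still above 99.3% of genes.

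The libraries labelled db/m-GABP-OE were set against db/m-veh, likewise by label. Of the 10 members 6 had all 3 db/m-GABP-OE libraries above all 3 of db/m-veh, namely Jun, Junb, Atf3, Egr1, Klf6 and Ier2, where 30.4% of genes did so. After scaling 5 members did, all of these but Jun, against 9.55% of genes. Each such member had an exact permutation p of 0.1 (two-sided), the smallest that 3 against 3 libraries allow. Atf3 averaged 3.64 ± 0.326 FPKM in db/m-GABP-OE and 1.11 ± 0.687 FPKM in db/m-veh (SD, n = 3 each), a ratio of 3.29, or 2.51 after scaling. Junb averaged 24.1 ± 3.25 FPKM in db/m-GABP-OE and 7.69 ± 2.38 FPKM in db/m-veh (SD, n = 3 each), a ratio of 3.14, or 2.35 after scaling. The ratios of Egr1, Klf6, Ier2 and Jun were 2.19, 2.06, 2.00 and 1.63, and 1.61, 1.52, 1.495 and 1.20 after scaling. Those of Fos, Klf4 and Ier3 were 1.08, 1.23 and 1.34, and below 1 after scaling, at 0.821, 0.915 and 0.979.

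In the fit over all 12 libraries limma called 0 of 9 members in this comparison, against 1.9% of 12897 genes called. At an unadjusted p under 0.05 it had 0 of 9 members, against 1941 of 12897 genes. limma-voom called 0 of 8, with 1 at an unadjusted p under 0.05. Junb had a log2 fold change of 1.62 (SE 0.81, limma adjusted p = 0.363) and Atf3 one of 1.45 (SE 0.81, limma adjusted p = 0.415). The estimate of spread in that fit is shared with the db/db groups, where the members varied most. In a fit of the 2 db/m groups alone limma called Junb (adjusted p = 0.0167) and Atf3 (adjusted p = 0.0215), 2 of 9 members against 4.57% of genes (4.39% higher). Over the 23 alternatives the adjusted p ran from 0.0167 to 0.863 for Junb and from 0.0215 to 0.946 for Atf3. The median log2 fold change of the 9 members was 0.95, against 0.38 over all genes, and after scaling 0.54 against 0.04, with 0 of 9 called against 0.21% of genes. Of 13 cell type marker lists 5 had summed scaled levels in all 3 db/m-GABP-OE libraries above those in all 3 of db/m-veh, namely macrophage, fibroblast, endothelium, adipocyte and thick ascending limb, and 0 lay below. Among the macrophage markers all 4 of Adgre1, Cd68, Csf1r and C1qa had their highest library in db/m-GABP-OE after scaling, and their summed scaled level was 37.3 to 57.3 in db/m-GABP-OE, against 10.3 to 14.8 in db/m-veh, where Adgre1 was at 0 in 1 library. limma called 1 of these 4, C1qa, a complement gene of macrophages (log2 fold change 2.80, SE 0.68, adjusted p = 0.0429, and 2.37 with adjusted p = 0.336 after scaling). The summed scaled level of 3 fibroblast markers was 54.9 to 80.0 in db/m-GABP-OE, against 11.3 to 46.6 in db/m-veh, and that of 6 endothelial markers was 101.9 to 144.8 in db/m-GABP-OE, against 71.5 to 91.4 in db/m-veh. The 4 adipocyte markers summed to 5.33 to 14.7 in db/m-GABP-OE, against 0.107 to 1.04 in db/m-veh, where Adipoq was at 0 in all 3 libraries. The 3 markers of the thick ascending limb summed to 113.5 to 121.5 in db/m-GABP-OE, against 62.4 to 108.3 in db/m-veh. The mitochondrial share was 58.6% to 64.2% in db/m-GABP-OE, against 67.9% to 77.8% in db/m-veh. The part of these in the levels of the members was not tested.

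Vehicle-treated db/db kidneys were set against vehicle-treated db/m kidneys to ask what diabetes changes. limma called 0 of 9 members, with 0 at an unadjusted p under 0.05, against 0.093% of 12897 genes called, and limma-voom called 0 of 8, also with 0. Over all genes 1489 of 12897 had a limma unadjusted p under 0.05. The groups overlapped for all 10 members, where 1.46% of genes lay above and 14.4% below (8.39% and 8.94% after scaling). Log2 fold changes ran from -0.61 for Fos to 0.46 for Ier3 (SE 0.49, 95% interval -0.58 to 1.495), with a median of -0.16 against -0.24 over all genes, and 0.18 against 0.01 after scaling, with 0 of 9 called against 0.171% of genes. After scaling Ier3 had 0.82 (95% interval 0.064 to 1.58, limma unadjusted p = 0.0356, adjusted p = 0.367), the 1 member at an unadjusted p under 0.05 there, and its groups still overlapped. On that scale 1551 of 12844 genes had a limma unadjusted p under 0.05. The interval of Klf6 reached from -1.79 to 1.90 and that of Atf3 from -2.05 to 1.36, so changes of several-fold in either direction lay within these intervals. Without db/db-veh 3 the values were -1.23 for Atf3, -1.10 for Jun, -0.99 for Klf6 and -0.75 for Junb, and Klf6 and Junb changed sign. Both this comparison and that of db/m-GABP-OE rest on the same db/m-veh libraries, and the db/db-GABP-KD comparison uses the same db/db-veh libraries.

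Ratios between members within a library do not depend on its scaling. Junb to Jun was 1.56 to 1.72 in db/db-GABP-KD, 1.49 to 3.26 in db/m-GABP-OE, 1.35 to 1.498 in db/db-veh and 0.918 to 1.26 in db/m-veh. Library db/db-GABP-KD 1, where both genes were high, had 1.72, near libraries 2 and 3 of its group. Every db/m-GABP-OE library lay above every db/m-veh library in this ratio, and every db/db-GABP-KD library above every db/db-veh library. These ratios were not tested. Klf6 to Klf4 was 24.2, 4.001 and 5.32 in db/db-GABP-KD, against 0.995, 1.64 and 15.5 in db/db-veh. This ratio was 4.72, 3.00 and 4.03 in db/m-GABP-OE, against 2.74, 2.46 and 1.93 in db/m-veh. The shift of Klf6 relative to Klf4 marked the same db/db-GABP-KD 1 and db/db-veh 3, and in the db/m groups every db/m-GABP-OE library lay above every db/m-veh library. Junb to Fos was 36.4, 26.4 and 4.73 in db/db-GABP-KD, against 7.41, 7.28 and 12.54 in db/db-veh. It was 8.47, 11.05 and 14.1 in db/m-GABP-OE, against 10.99, 3.48 and 2.79 in db/m-veh. Fos therefore did not keep a fixed proportion to Junb.

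The likeness of the members over the 12 libraries split them into those that went together and those that did not. The correlation of a member with the mean of the other members (log2 scaled levels, 12 libraries) was 0.94 for Ier2, 0.91 for Junb, 0.90 for Klf6, 0.90 for Jun, 0.88 for Egr1 and 0.87 for Atf3. It was 0.48 for Fos, 0.33 for Ier3, 0.17 for Klf4 and 0.14 for Fosb. Without db/db-GABP-KD 1 the first 6 kept 0.78 (Atf3) to 0.91 (Ier2), and Klf4 and Ier3 stood at 0.0011 and 0.09. Libraries share depth and tissue makeup, so these values are descriptions. Of 9294 other genes with a mean of at least 1 FPKM, those most like the mean of the members were Gadd45a (r = 0.96), Plaur (0.96), Shb (0.95), Btg1 (0.93), Rab20 (0.93), Cdh1 (0.92), Btg2 (0.92), Gdf15 (0.92), Hilpda (0.92) and Esf1 (0.91). Without db/db-GABP-KD 1 these r ran from 0.81 (Esf1) to 0.92 (Gadd45a). Gadd45a and Btg2 are growth arrest genes, Plaur encodes the urokinase receptor, and Gdf15 a stress-induced secreted factor. Gadd45a was at 35.9, 2.97 and 3.55 FPKM in db/db-GABP-KD, against 2.84, 1.40 and 8.93 FPKM in db/db-veh. Gdf15 was at 46.2, 5.47 and 2.99 FPKM in db/db-GABP-KD, against 2.23, 1.33 and 16.7 FPKM in db/db-veh. Both were highest in db/db-GABP-KD 1 and, in db/db-veh, in library 3, as was the mean of the members. Because they were picked for likeness to that mean, this follows from the choice and is no separate evidence.

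Other genes of the early response were counted from lists. Among 39 other immediate early genes, 39 were tested and limma called 0 in any of the 3 comparisons, as did limma-voom. At an unadjusted p under 0.05 limma had 6 in the db/db-GABP-KD comparison, 4 in that of db/m-GABP-OE and 0 between the vehicle groups, and limma-voom had 8, 4 and 0. Over all genes limma had 1839, 1941 and 1489 of 12897, in the same order. Their median log2 fold change was 0.56 for db/db-GABP-KD (0.42 over all genes), 0.73 for db/m-GABP-OE (0.38) and -0.03 for db/db-veh (-0.24). After scaling these medians were 0.11, 0.33 and 0.34. After scaling 18 of the 39 had their highest library in db/db-GABP-KD 1 and 10 in db/db-veh 3, against 16.5% and 7.37% of all genes tested. With the smallest adjusted p in the knockdown comparison, Ier5l was at 12.8, 8.73 and 6.41 FPKM in db/db-GABP-KD, against 3.79, 1.35 and 3.15 FPKM in db/db-veh. Its log2 fold change was 1.62 (SE 0.39, limma adjusted p = 0.229). Socs3, which encodes an inhibitor of cytokine signalling, was at 23.4, 4.59 and 3.98 FPKM in db/db-GABP-KD, against 0.918, 1.21 and 3.69 FPKM in db/db-veh (limma adjusted p = 0.337). As deposited, every db/db-GABP-KD library exceeded every db/db-veh library for Ier5l and Socs3, as for 17.3% of genes. After scaling this held for Ier5l, as for 4.62% of genes, and Socs3 overlapped.

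**Figure D4:**
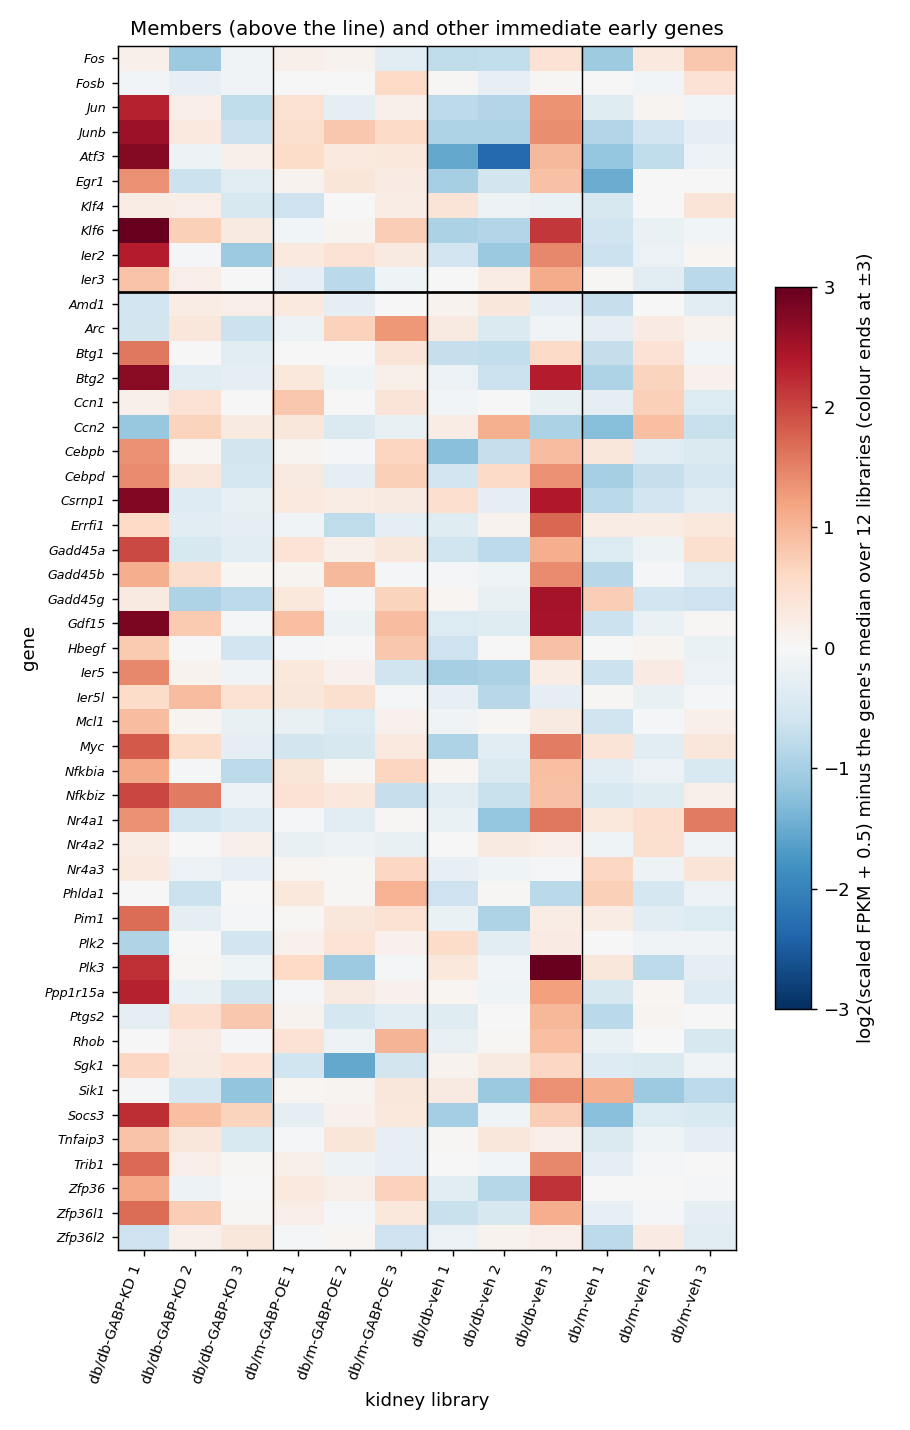
Level of the 10 members (above the line) and the 39 other immediate early genes in each library, as log2(scaled FPKM + 0.5) minus the gene's median over the 12 libraries, with the colour ending at ±3. Columns are the 12 libraries, with db/db-GABP-KD at the left and db/m-veh at the right. The columns of db/db-GABP-KD 1 and db/db-veh 3 are the reddest, being the highest library for 18 and 10 of the 39 genes. The shares over all genes tested are 16.5% and 7.37%.

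The partners of the members were counted in the same way. Of 12 AP-1 partners and relatives 11 were tested, and limma called 1 higher with GABP-OE, where it called 1.9% of 12897 genes. That gene was Batf, a small AP-1 protein of immune cells, at 1.42, 1.98 and 2.15 FPKM in db/m-GABP-OE, against 0.311, 0.522 and 0.533 FPKM in db/m-veh, with a log2 fold change of 1.29 (SE 0.28) and a limma adjusted p of 0.0267. Its call was lost after scaling (0.97, limma adjusted p = 0.275), and its adjusted p ran from 0.0138 to 0.506 over the 23 alternatives. Leaving out db/m-veh 1, 2 or 3 ended the call too (limma adjusted p = 0.0728, 0.0785 and 0.102), and so did leaving out db/m-GABP-OE 2 (0.135) or 3 (0.127). None of the other 10 tested partners, of 9 ATF/CREB genes, of 3 tested EGR and NAB genes, of 12 tested KLF genes, of 6 SRF genes, of 19 MAP kinase genes or of 9 dual specificity phosphatase genes was called by limma in the fit of 12 libraries, or by limma-voom. Between 0 and 5 genes per list and comparison had an unadjusted p under 0.05, and over all genes limma had 1489 to 1941 of 12897. When db/db-GABP-KD 1 was left out of the fit, the GABP-OE comparison called 2 AP-1 partners, 1 EGR or NAB gene and 1 KLF gene, all higher, against 4.37% of 12788 genes. Dusp1, a phosphatase that is itself induced early, was at 10.8, 10.7 and 31.1 FPKM in db/db-veh, against 8.75, 5.81 and 8.02 FPKM in db/m-veh, with a log2 fold change of 1.00 (SE 0.53) and a limma adjusted p of 0.488. All 3 db/db-veh libraries lay above db/m-veh for Dusp1, with db/db-veh 3 far above the rest.

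Marker lists of cell types and of sampling were read beside the 2 libraries with high members. After scaling the summed level of 5 proximal tubule markers was 138.8 in db/db-GABP-KD 1, 301.7 and 346.2 in db/db-GABP-KD 2 and 3, against 513.2, 302.6 and 500.5 in db/db-veh 1 to 3, with 0 of 5 at 0. The 5 neutrophil markers summed to 20.5, 10.1 and 6.73 in db/db-GABP-KD 1 to 3, against 1.97, 8.52 and 13.1 in db/db-veh 1 to 3, and 4 of the 5 had their highest library in db/db-GABP-KD 1. Ly6g was at 0 in 11 of the 12 libraries, all but db/db-GABP-KD 1. Other lists were higher or lower in db/db-GABP-KD 1 than in its group. Collecting duct markers summed to 213.8, 56.8 and 65.4 in db/db-GABP-KD 1 to 3, against 56.6 to 117.5 in db/db-veh. Of these 5 markers 1 had its highest library in db/db-GABP-KD 1. Red blood cell markers summed to 144.0, 34.8 and 48.7, against 216.8 to 368.2. Fibroblast markers summed to 7.89, 46.5 and 52.7, against 16.6 to 60.4. Macrophage markers summed to 7.76, 20.6 and 21.3, against 6.98 to 11.9. The 17 circadian clock genes summed to 169.8, 56.9 and 56.0 in db/db-GABP-KD 1 to 3, against 105.7, 84.8 and 102.1 in db/db-veh 1 to 3. Library db/db-GABP-KD 1 thus had the lowest proximal tubule sum and the highest clock sum of these 6, while db/db-veh 3 lay near db/db-veh 1 in both. Summed heat shock genes were 240.8 to 278.0 in db/db-GABP-KD, against 144.5 to 192.5 in db/db-veh, so db/db-GABP-KD 1 did not stand apart from its group there. The part of these cell types, of sampling time or of the mitochondrial share in the levels of the members was not tested.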

How the data were processed

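Poly(A) mRNA of kidney was sequenced as paired ends by Illumina, per the labels' protocols. The authors deposited 1 FPKM value per gene and library. Counting used HTSeq and GRCm39, per the submitters' processing notes, with aligner, annotation and strand setting not given in the sources used here. With GENCODE M21 exon lengths (GRCm38), 98.3% of genes with a length gave whole fragments in every library (tolerance 0.05), so coordinates are given in GRCm38. Ier2 did not, and its fragments are not given. Between replicates, chi-square per degree of freedom of the fragments was 7.73 to 163, so none was a copy. Fragments may include PCR duplicates, so floors (3 fragments) cover counting error only.

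The main test was limma 3.58.1 (R 4.3.3) on log2(FPKM + 0.5), a scale that shrinks changes at low levels. It used 12897 genes with at least 0.3 FPKM in at least 3 libraries, all 12 libraries in 1 fit, no block, a variance trend, and two-sided tests with Benjamini-Hochberg adjustment over all genes (threshold 0.05). Median of ratios scaling used 5884 genes above 1 FPKM in every library. Alternatives were other pseudocounts (0.1, 1), a filter of 1 FPKM or none, that scaling, 2 groups only, the replicate number as a block, voom on recovered fragments, and each library left out. voom with median of ratios sizes, and that scaling without db/db-GABP-KD 1 or without db/db-veh 3, were added after seeing the data. Simulated data served to test the fit. Python 3.11.15 with pandas 2.3.3, numpy 2.4.6 and matplotlib 3.10.9 did the rest.

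The members and gene lists were chosen with earlier results of these data known. All members are named. From each other list called genes are named, or up to 3 with the smallest adjusted p, and the 10 genes most like the members' mean. The replicate numbers are not stated to pair samples.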

Additional observations from a re-analysis of the deposited data

How the results depend on the processing

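The count of members called was 0 in each of the 3 comparisons under the alternatives run, leave-outs included (lowest 0, highest 0), except with 2 groups only, which called 2 for GABP-OE, Junb and Atf3. Deviations of same-numbered libraries from their group means correlated at -0.447 to 0.346 over the 9 pairs, and in no comparison did all 3 pairs exceed 0.1, so the numbers were not taken as pairing. The replicate number as a block also called 0 in each comparison. Every group holds the same replicate numbers, so this block cannot change a log2 fold change and does not test direction. Over the alternatives 27 of 205 member values changed sign between the vehicle groups, 11 of 205 with GABP-OE and 14 of 205 with GABP-KD, and the cause was not tested. The 205 values include settings that leave a log2 fold change the same by construction. Among these are the block, the filters, 2 groups only and leaving out a library of another group. The shares of 205 therefore understate how often signs changed where they could.

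As log2 fold changes, median of ratios, with or without db/db-GABP-KD 1, gave between the vehicle groups 0.0079 for Jun, 0.28 for Egr1, 0.041 for Klf4 and 0.18 for Ier2. For GABP-OE it gave -0.049 for Fos, -0.11 for Klf4 and -0.017 for Ier3, also without db/db-veh 3. For GABP-KD it gave -0.033 for Klf4 and -0.099 for Ier3, and without db/db-GABP-KD 1 -0.24 for Fos, -0.16 for Jun, -0.019 for Junb, -0.26 for Egr1, -0.15 for Klf4, -0.50 for Ier2 and -0.35 for Ier3. Without db/db-veh 3 it gave -0.34 for Junb, 0.15 for Klf4 and -0.62 for Klf6 between the vehicle groups, and -0.14 for Klf4 with GABP-KD. voom gave -0.00622 for Klf6 between the vehicle groups, and with median of ratios sizes 0.18 for Egr1 there and -0.030 for Klf4 with GABP-OE.

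Leaving out single libraries gave these lowest and highest values. Between the vehicle groups they were -1.10 and 0.25 for Jun, -0.75 and 0.66 for Junb, -1.23 and 0.29 for Atf3, -0.61 and 0.32 for Egr1, -0.56 and 0.032 for Klf4, -0.99 and 0.73 for Klf6, and -0.97 and 0.55 for Ier2. With GABP-OE they were -0.23 and 0.77 for Fos. With GABP-KD they were -0.050 and 0.94 for Fos, -0.020 and 1.47 for Egr1, -0.24 and 1.92 for Ier2, and -0.063 and 0.89 for Ier3. Fosb, at 0 to 28 fragments per library, and Fos, at 8 to 82, are limited by depth.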

Other observations

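Genes of the heat shock response and of the circadian clock can also respond to handling or to the hour of sampling. Hspa8, a constitutive chaperone gene, was at 63.0, 43.2 and 87.0 FPKM in db/db-veh, against 293.5, 111.1 and 297.9 FPKM in db/m-veh, with a log2 fold change of -1.78 (SE 0.46, limma adjusted p = 0.221, 3 of 3 libraries lower). As deposited, 14.4% of genes had all 3 db/db-veh libraries below all 3 of db/m-veh. After scaling the limma adjusted p of Hspa8 was 0.134. Summed over 10 heat shock genes, the scaled level was highest in db/m-GABP-OE 1, at 560.0, against 284.3 to 471.5 in db/m-veh. Ciart, a repressor within the clock, had a log2 fold change of 2.61 in db/db-veh against db/m-veh (SE 0.73, limma adjusted p = 0.245). Per3, another clock repressor, had one of 1.59 with GABP-OE (SE 0.42, limma adjusted p = 0.0615). In the fit of 12 libraries limma called 0 of 10 heat shock genes and 0 of 17 clock genes in any comparison, as did limma-voom. At an unadjusted p under 0.05 limma had 0 to 6 genes per list and comparison, and limma-voom 1 to 7. Over all genes limma had 1489 to 1941 of 12897. Without db/db-GABP-KD 1, 1 clock gene was called higher between the vehicle groups (0.375% of 12788 genes called), 3 were called higher with GABP-OE (4.37%) and 1 lower with GABP-KD (0.0313%). Cfd, an adipocyte gene, rose with GABP-OE (log2 fold change 3.42, SE 0.79), 3 of 3 libraries being higher. As deposited, 30.4% of genes had all 3 db/m-GABP-OE libraries above all 3 of db/m-veh. The limma adjusted p of Cfd was 0.0355, where 1.9% of genes were called, and 0.244 after scaling, where 0.21% were.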
